A study of Homo sapiens and Mus musculus with 12 samples.

Results

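Interferon-stimulated genes are genes whose transcription rises when a cell answers an interferon. Here 39 of them, listed by human symbol, were followed in MDA-MB-231, a human triple-negative breast cancer (TNBC) cell line, and, through the mouse genes of the same symbol, in 4T1, a mouse mammary carcinoma cell line. All 39 symbols were found among the 63677 gene identifiers of the human count files and 38 among the 47729 of the mouse files, where no gene carries the symbol Ifi6. Wild-type cells of each line received 1 μM ponatinib, an inhibitor of several tyrosine kinases, or its solvent DMSO alone for 24 h, and total RNA was sequenced in 3 libraries per group, 12 in all. No library was treated with an interferon, and each line was cultured alone, without immune cells. The comparison asks which interferon-stimulated genes differ between ponatinib and DMSO in each line, and whether the lines differ in this.

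Type I and type III interferons bind receptors that carry the kinases JAK1 and TYK2. The kinases phosphorylate STAT proteins, among them STAT2, which joins IRF9 in a complex called ISGF3. ISGF3 binds a short promoter element, the interferon-stimulated response element (ISRE), whereas the response to interferon-γ acts through another, the gamma-activated sequence (GAS). The genes under these elements encode RNA sensors, antiviral effectors, the ISG15 conjugation system and factors of the cascade itself, so that a part of the response feeds back on its own supply of STAT and IRF proteins. In tumour cells many of these genes are expressed at a low level without added interferon.

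In the promoters, the ISRE was more frequent among the members than among all tested genes, though many members, and most in mouse, lack it. In the 300 bases from 250 before to 50 after the start site, an ISRE core was searched as a pair of GAAA repeats parted by 2 bases, or TTTC repeats on the other strand. The RefSeq promoter set used has no entry for IRF7, USP18, DHX58, OAS2, IFIT2, MX2 and GBP2. Of the other 32 human members, 19 (59.4%) held a match, against 2.8% of the 10687 tested genes with a promoter sequence. In mouse 15 of 38 members (39.5%) held one, against 3.47% of 13108 tested genes. For GAS, only TTCC and GAA parted by 3 bases, on either strand, was searched. This pattern was found in 1 of 32 human members (3.12%, against 2.89% of tested genes). In mouse it was found in 3 of 38 members (7.89%, against 3.44%). The shorter form, TTC and GAA parted by 3 bases, was not searched, so these counts do not tell how many members hold a GAS. A match describes the sequence and does not show that a factor binds there.

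The following windows are shown because they belong to members on which the results turn, with the element nearest to the start site in capitals. The human windows are from RefSeq (GRCh38.p14), read along the gene's strand, and come from members that were higher with ponatinib in MDA-MB-231 (IFIT1, IFIT3, IFI44L, ISG15, PARP14) or lower (OAS3). IFIT1 lies on the plus strand at chr10:89392495-89392554, IFIT3 on the plus strand at chr10:89327850-89327909, IFI44L on the plus strand at chr1:78620350-78620409, ISG15 on the plus strand at chr1:1013365-1013424, PARP14 on the plus strand at chr3:122680800-122680829 and OAS3 on the plus strand at chr12:112938452-112938481.
IFIT1: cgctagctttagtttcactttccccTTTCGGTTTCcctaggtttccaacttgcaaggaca
IFIT3: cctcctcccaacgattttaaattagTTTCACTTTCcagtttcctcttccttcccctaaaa
IFI44L: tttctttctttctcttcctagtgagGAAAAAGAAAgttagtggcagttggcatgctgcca
ISG15: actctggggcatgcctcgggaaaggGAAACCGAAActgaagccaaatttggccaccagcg
PARP14: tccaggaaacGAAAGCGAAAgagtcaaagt
OAS3: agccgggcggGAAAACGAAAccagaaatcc

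The mouse windows are from GRCm39, at the canonical start sites of GENCODE vM39. They come from members that were higher with ponatinib in 4T1 (Usp18, Ifit3, Oas3, Gbp2), lower (Rsad2) or not called (Ifit1). Their positions are chr6:121222781-121222840 (plus strand) for Usp18, chr19:34560782-34560841 (plus strand) for Ifit3, chr5:120915765-120915824 (minus strand) for Oas3, chr3:142326355-142326384 (plus strand) for Gbp2, chr12:26506537-26506596 (minus strand) for Rsad2 and chr19:34618179-34618238 (plus strand) for Ifit1.
Usp18: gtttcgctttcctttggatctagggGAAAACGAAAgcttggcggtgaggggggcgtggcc
Ifit3: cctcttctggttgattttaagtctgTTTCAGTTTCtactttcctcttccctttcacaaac
Oas3: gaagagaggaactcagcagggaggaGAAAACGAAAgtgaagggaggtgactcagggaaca
Gbp2: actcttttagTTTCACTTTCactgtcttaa
Rsad2: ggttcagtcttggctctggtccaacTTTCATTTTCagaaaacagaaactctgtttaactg
Ifit1: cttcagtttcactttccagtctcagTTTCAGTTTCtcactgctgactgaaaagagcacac

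Depth ran from 15012884 to 17301760 counts over the MDA-MB-231 libraries and from 17800675 to 18951493 over those of 4T1. Replicate 1 of each group stood somewhat apart: the chi-square per gene between replicates was 8.91 to 16.5 in the pairs with replicate 1 and 2.93 to 6.92 between replicates 2 and 3. Of the markers of the labelled epithelial cells, KRT8, KRT18 and KRT19 were abundant in MDA-MB-231, beside the mesenchymal VIM, whereas CDH1, which encodes E-cadherin, had 1 count in all. ESR1 was near 0 there and ERBB2 stood at 98.1 CPM with DMSO, where CPM is counts per 1e6 counts of the library. In 4T1 Cdh1, Krt8, Krt18, Krt19 and Vim were abundant, and 3 of the 4 mesenchymal markers passed the filter on low counts. Of 7 leukocyte markers, PTPRC was at 0 in MDA-MB-231 and CD14 and CSF1R were the only ones over the filter. CSF1R went from 0.735 to 1.80 CPM (log2 fold change 1.28, edgeR adjusted p = 0.0066). In 4T1 Itgam, Cd3e and Nkg7 were at 0, and Cd14, which this line expresses, fell by 0.72 on the log2 scale (edgeR adjusted p = 1.95e-06). No endothelial marker passed the filter in either line. In bulk libraries, a change in how many cells express a gene and a change in the RNA per cell cannot be told apart.

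Most of the listed interferon-stimulated genes rose with ponatinib in both lines. The list was chosen with earlier results of these data known, so the shares below describe its members only. In MDA-MB-231, 37 members passed the filter on low counts, and edgeR's quasi-likelihood test (adjusted p under 0.05) called 26 of these higher under ponatinib and 2 lower. Of all 14610 genes tested in that line 27.2% were higher and 26.8% lower. In 4T1, 31 members passed, of which 24 were higher and 3 lower, beside 29.5% and 29.4% of 13286 genes. The median log2 fold change of the tested members was 0.69 in MDA-MB-231, where the median of all tested genes was 0.02, and 1.07 in 4T1, where it was 0.00. A rise of over 1 on the log2 scale that also passed the test was seen for 15 members in MDA-MB-231 and 16 in 4T1, while 10.7% and 9.57% of all tested genes did this. The filter needs enough counts in only as many libraries as a group holds, so a member could enter through its ponatinib libraries alone. Such members included Usp18 (mean 0.186 CPM with DMSO), Mx2 (0.258), Ifit3 (0.204) and Gbp2 in 4T1. In MDA-MB-231 they included IFI44L (0.302) and IFI27 (0.493). They had little room to be called lower and stand among the risen members counted here and below. The shares of all genes rest on the same filter.

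The replicates separated in most members. Every ponatinib library lay above every DMSO library for 29 of 37 members in MDA-MB-231 (30.6% of all genes) and for 24 of 31 in 4T1 (32.6%), and every one lay below for 2 members (29.8%) and 3 members (30.8%). The median over members of the log2 ratio to the mean of the DMSO libraries was 0.81, 0.55 and 0.61 in the 3 ponatinib libraries of MDA-MB-231, and between -0.02 and 0.03 in its DMSO libraries. In 4T1 it was 0.92, 0.86 and 0.87 with ponatinib and between -0.06 and 0.03 with DMSO. Leaving out any 1 library gave 24 to 26 higher and 2 lower members in MDA-MB-231 and 23 to 24 higher and 3 lower in 4T1.

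**Figure D1:**
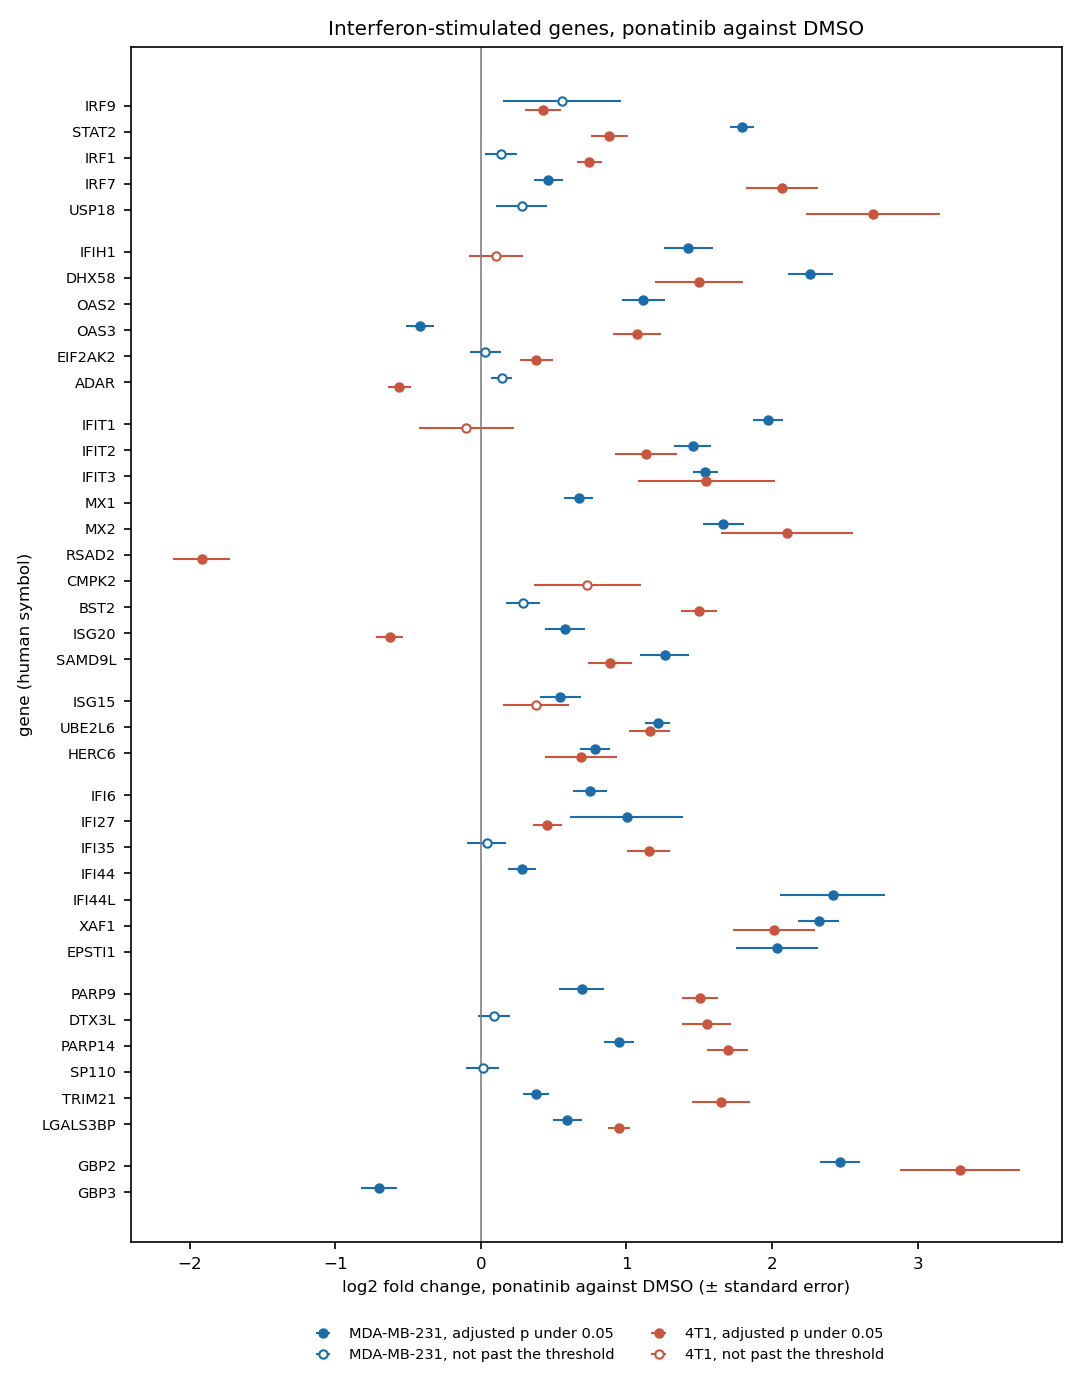
Log2 fold change of each tested member, ponatinib against DMSO (horizontal axis, bars are standard errors), in MDA-MB-231 (blue) and 4T1 (red), ordered by role; filled points have an adjusted p under 0.05. Of the points, 26 of 37 in MDA-MB-231 and 24 of 31 in 4T1 are filled and lie right of 0, with GBP2 the farthest right in both lines and RSAD2, tested in 4T1 only, the farthest left.

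As CPM per kilobase of exon (RPKM), the median level of all 39 members with DMSO was 2.80 in MDA-MB-231, and that of all 38 in 4T1 was 0.467. Over the tested members it was 3.26 in MDA-MB-231, where the median of all tested genes was 3.66, and 0.677 in 4T1, where it was 4.46. Of the tested members, 11 of 37 (29.7%) were below 1 RPKM in MDA-MB-231, close to the 25.7% of all tested genes, and 16 of 31 (51.6%) in 4T1, against 22.6%. The highest DMSO levels in MDA-MB-231 were those of BST2 (278 RPKM), LGALS3BP (261 RPKM) and ISG15 (174 RPKM). In 4T1 they were Lgals3bp (114 RPKM), Isg20 (48.3 RPKM), Bst2 (14.2 RPKM) and Irf1 (10.7 RPKM).

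Within the cascade itself, STAT2, the partner of IRF9 in ISGF3, rose in both lines. In MDA-MB-231, STAT2 (chr12:56341597-56360203 in hg38) measured 36.7, 38.8 and 39.1 CPM in the DMSO libraries and 126, 133 and 139 CPM with ponatinib, a log2 fold change of 1.79 ± 0.08 (SE; edgeR adjusted p = 1.58e-08). Its groups were far apart compared with their spread. In 4T1, Stat2 went from 6.01, 6.67 and 6.45 CPM to 12, 11.5 and 11.8 CPM, a log2 fold change of 0.88 ± 0.13 (edgeR adjusted p = 3.53e-05).

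IRF7, the factor that amplifies interferon production, rose in both lines from very different levels. It went from 63.6, 53.2 and 50.5 CPM to 81.8, 74.9 and 74.0 CPM in MDA-MB-231 (log2 fold change 0.46 ± 0.10, edgeR adjusted p = 0.00185). In 4T1, Irf7 (chr7:140842619-140846398 in GRCm39) went from 1.25, 0.778 and 1.09 CPM to 3.99, 4.29 and 4.88 CPM (2.07 ± 0.25, edgeR adjusted p = 5.8e-06). An exon of mouse Irf7 overlaps one of Phrf1 on the opposite strand, which had 1766 to 2123 counts per library.

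The cascade genes IRF1, an interferon-induced activator, IRF9, the ISGF3 subunit, and USP18, a protease that removes ISG15 from proteins and restrains the type I receptor, rose in 4T1 and missed the threshold in MDA-MB-231. The difference between the lines was called for IRF1 and USP18 (edgeR adjusted p = 0.00567 and 0.000415) and not for IRF9 (0.721). Irf1 went from 55.5, 46.2 and 48.9 CPM to 86.2, 79.6 and 86.6 CPM in 4T1 (log2 fold change 0.75 ± 0.09, edgeR adjusted p = 4.1e-06). In MDA-MB-231 the groups of IRF1 overlapped, with 50.9, 43.7 and 51.8 CPM against 62.0, 49.8 and 49.3 CPM (0.14 ± 0.11, edgeR adjusted p = 0.314). Usp18 was near the lower limit of detection with DMSO in 4T1, at 0.227, 0.278 and 0.0547 CPM, and reached 1.28, 1.19 and 1.25 CPM with ponatinib (2.69 ± 0.46, edgeR adjusted p = 0.000156).

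USP18 in MDA-MB-231 measured 4.84, 4.40 and 4.78 CPM with DMSO and 5.11, 6.82 and 5.15 CPM with ponatinib (log2 fold change 0.28 ± 0.18, edgeR adjusted p = 0.2). Irf9 in 4T1 went from 7.71, 8.50 and 8.04 CPM to 11.1, 10.7 and 10.7 CPM (0.43 ± 0.12, edgeR adjusted p = 0.0085). An exon of mouse Irf9 overlaps one of Rnf31 on the same strand, which had 523 to 535 counts with DMSO and 644 to 724 with ponatinib, and its part in the rise of Irf9 was not tested. IRF9 in MDA-MB-231 gave few reads, 0.597, 0.583 and 0.377 CPM against 1.01, 0.637 and 0.657 CPM (0.56 ± 0.41, edgeR adjusted p = 0.268). A protein-coding gene annotated over IRF9 on the same strand, ENSG00000259529, had 0 to 5 counts per library, and whether reads of IRF9 were lost to this overlap was not tested.

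Among the sensors and enzymes of double-stranded RNA, the helicase genes rose most in MDA-MB-231. DHX58, which encodes LGP2, a regulator of RNA sensing, went from 2.25, 2.91 and 2.71 CPM to 12, 12.6 and 13.3 CPM (log2 fold change 2.26 ± 0.16, edgeR adjusted p = 4.54e-07). IFIH1, the gene of the sensor MDA5, went from 4.18, 6.80 and 5.16 CPM to 15.3, 14.2 and 13.9 CPM (1.42 ± 0.17, edgeR adjusted p = 2.55e-05). Both groups of libraries were well apart for each gene. In 4T1 Dhx58 rose from 0.838 ± 0.238 to 2.37 ± 0.430 CPM (mean ± SD, n = 3; log2 fold change 1.5), whereas Ifih1 measured 4.25 ± 0.705 and 4.56 ± 0.506 CPM with overlapping groups (0.10 ± 0.18, edgeR adjusted p = 0.654).

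OAS3, whose product makes the oligoadenylates that activate RNase L, was called in opposite directions. It fell in MDA-MB-231 from 46.4, 45.5 and 47.7 CPM to 31.0, 34.9 and 38.4 CPM, a log2 fold change of -0.42 ± 0.10 (edgeR adjusted p = 0.00311). In 4T1, Oas3 rose from 3.01, 3.22 and 3.55 CPM to 6.95, 6.30 and 7.37 CPM (1.07 ± 0.17, edgeR adjusted p = 6.44e-05). Neither line had overlapping groups. Its relative OAS2 rose in MDA-MB-231, from 4.74 ± 0.319 to 10.3 ± 1.01 CPM (log2 fold change 1.12), and in 4T1 Oas2 had too few counts for a test, 1 with DMSO and 8 with ponatinib.

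ADAR, the enzyme that turns adenosine into inosine in double-stranded RNA, fell in 4T1. Its values were 63.1, 63.3 and 59.2 CPM with DMSO and 42.3, 44.2 and 39.4 CPM with ponatinib (log2 fold change -0.56 ± 0.08, edgeR adjusted p = 3.63e-05). In MDA-MB-231 ADAR measured 163, 165 and 174 CPM against 178, 188 and 189 CPM, groups that did not overlap but whose difference missed the threshold (0.14 ± 0.07, edgeR adjusted p = 0.109). With same-numbered replicates blocked, ADAR passed it in MDA-MB-231 (edgeR adjusted p = 0.00338), and so it did with total counts in place of TMM (0.24 on the log2 scale, edgeR adjusted p = 0.0213). EIF2AK2, which encodes the kinase PKR, rose in 4T1 from 12.8 ± 1.13 to 16.7 ± 0.608 CPM (log2 fold change 0.38) and measured 58.3 ± 4.99 and 59.4 ± 7.36 CPM in MDA-MB-231 (edgeR adjusted p = 0.833).

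Of the antiviral effectors, IFIT1 differed most between the lines, with genes matched by symbol alone. Its product binds RNA with foreign caps, and the gene (chr10:89392546-89406487 in hg38) rose in MDA-MB-231 from 16.5, 21.2 and 18.8 CPM to 71.8, 75.3 and 75 CPM (log2 fold change 1.97 ± 0.10, edgeR adjusted p = 4.79e-08). In 4T1 the Ifit1 groups overlapped, at 1.08, 1.39 and 2.62 CPM with DMSO and 1.64, 1.5 and 1.63 CPM with ponatinib (-0.10 ± 0.32, edgeR adjusted p = 0.809). Its value there turned to 0.36 without DMSO replicate 3, the highest of the 6 libraries.

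The neighbouring family members IFIT2 and IFIT3 rose in both lines. In MDA-MB-231 IFIT2 went from 20.0 ± 3.23 to 54.8 ± 5.80 CPM (log2 fold change 1.45) and IFIT3 from 56.4 ± 5.25 to 164 ± 5.08 CPM (1.54). Exons of both overlap LIPA on the opposite strand, which had 609 to 761 counts with DMSO and 979 to 1338 with ponatinib. Its part in the rises of IFIT2 and IFIT3 was not tested. In 4T1 Ifit2 went from 2.52 ± 0.0871 to 5.54 ± 1.49 CPM (1.13) and Ifit3 from 0.204 ± 0.0326 to 0.611 ± 0.0412 CPM (1.55 ± 0.47, edgeR adjusted p = 0.0107). Mouse Ifit3 has a near-identical copy, Ifit3b, with which its reads may be shared, and DESeq2 gave it an adjusted p of 0.102, so its call is uncertain.

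MX2, an antiviral GTPase, rose in MDA-MB-231 from 5.31, 4.34 and 4.15 CPM to 14.8, 14.8 and 14.2 CPM (log2 fold change 1.66 ± 0.14, edgeR adjusted p = 1.94e-06), and MX1 from 25.7 ± 1.11 to 41.0 ± 4.54 CPM (0.67). In 4T1 Mx2 rose from 0.258 ± 0.165 to 1.14 ± 0.213 CPM (2.10). Mx1 had no count in the 3 DMSO libraries of 4T1 and 25 counts in the 3 ponatinib libraries, at least 8.49-fold higher against a floor of 3 counts over the group. SAMD9L rose in both lines, from 3.71 ± 0.349 to 8.89 ± 1.16 CPM in MDA-MB-231 and from 21.9 ± 5.91 to 40.6 ± 4.15 CPM in 4T1.

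RSAD2, which encodes viperin, was the member that fell most. In 4T1 it went from 5.44, 6.34 and 5.47 CPM to 1.53, 1.5 and 1.52 CPM (chr12:26492745-26506451 in GRCm39; log2 fold change -1.92 ± 0.20, edgeR adjusted p = 1.32e-06). The ponatinib libraries lay close together and far below the DMSO libraries. Cmpk2, its neighbour, which encodes a mitochondrial nucleotide kinase, measured 0.741 ± 0.369 and 1.24 ± 0.170 CPM (0.73 ± 0.37, edgeR adjusted p = 0.102), and was called higher only without DMSO replicate 2 (adjusted p = 0.0234). In MDA-MB-231 the pair was barely detected, RSAD2 with 3 counts with DMSO and 6 with ponatinib and CMPK2 with 0 and 1.

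ISG20, a 3′ exonuclease, was the other member called in opposite directions. It rose in MDA-MB-231 from 27.8, 21.6 and 20.9 CPM to 41.3, 32.4 and 31.3 CPM (log2 fold change 0.58 ± 0.14, edgeR adjusted p = 0.00399). In 4T1, Isg20 (chr7:78562598-78570153 in GRCm39) fell from 138, 108 and 124 CPM to 79.8, 74.6 and 85.3 CPM (-0.63 ± 0.09, edgeR adjusted p = 3.94e-05). BST2, or tetherin, which holds budding virions at the cell surface, rose in 4T1 from 21.4, 15 and 15.5 CPM to 47.0, 47.1 and 52.5 CPM (1.5 ± 0.13, edgeR adjusted p = 1.53e-07).

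In MDA-MB-231, BST2 measured 345, 301 and 274 CPM against 443, 353 and 328 CPM, overlapping groups in which replicate 1 was the highest on both sides (log2 fold change 0.29 ± 0.12, edgeR adjusted p = 0.0563). A fit that blocks on replicate number called BST2 higher (edgeR adjusted p = 1.46e-06), as did fits with total counts (0.00532), no filter (0.00904) and at least 10 counts in every library (0.0404), and those without DMSO replicate 1 (0.0187) or ponatinib replicate 3 (0.018).

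**Figure D2:**
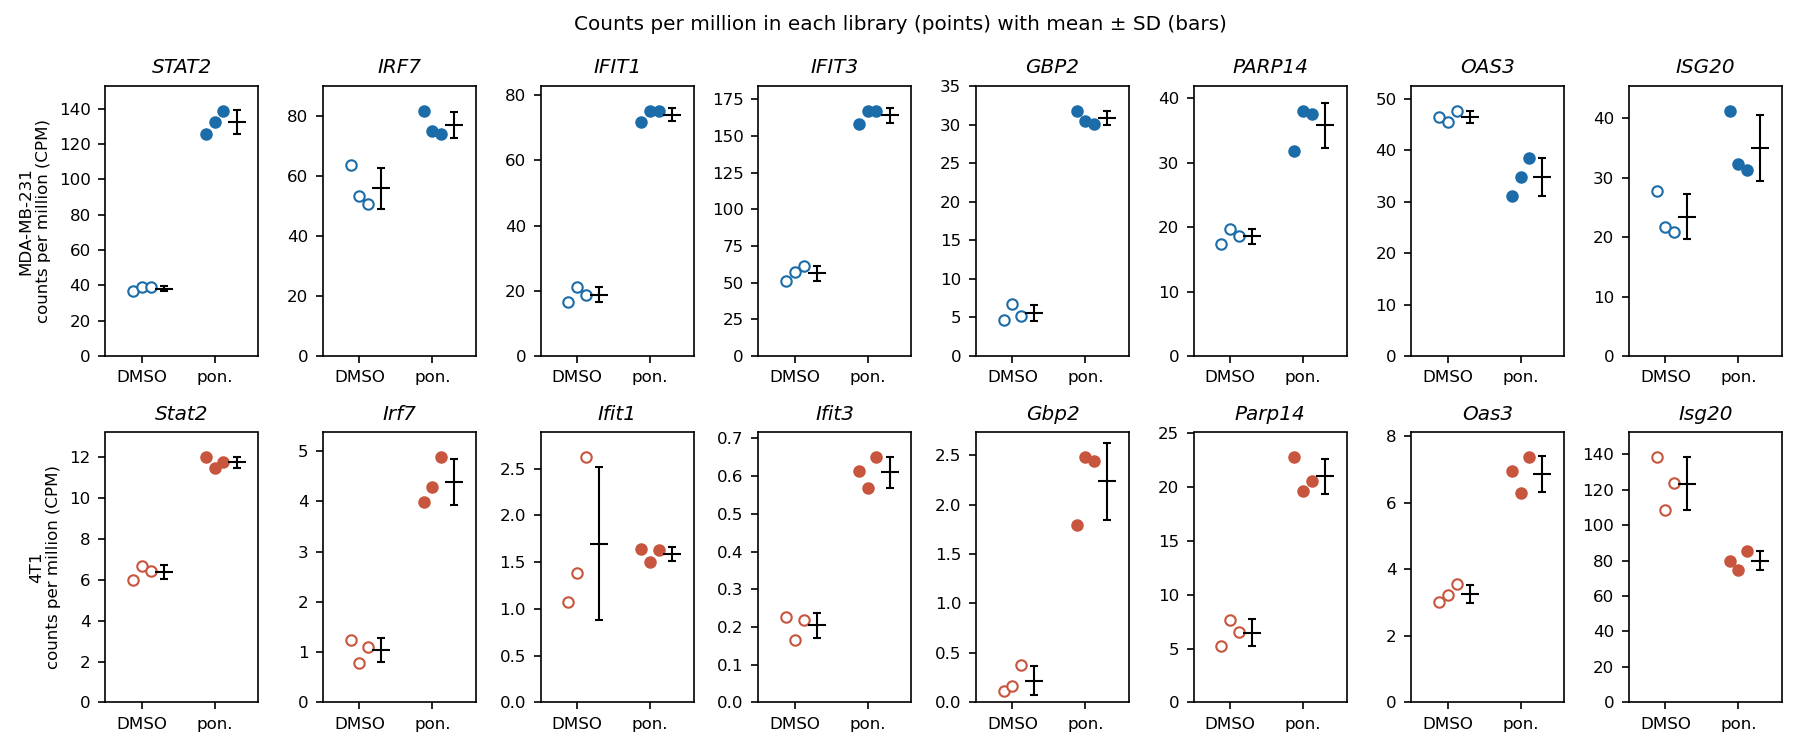
CPM in each library (points; DMSO open, ponatinib filled) for 8 members in MDA-MB-231 (upper row) and the mouse genes in 4T1 (lower row), with the mean and SD as black bars; each panel has its own linear axis from 0. STAT2, IRF7, IFIT3, GBP2 and PARP14 are higher with ponatinib in both rows, IFIT1 in the upper row alone, and OAS3 and ISG20 move in opposite directions in the rows.

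In the ISG15 conjugation system, UBE2L6, a conjugating enzyme for ISG15, rose in both lines. It went from 51.1, 43.5 and 51.0 CPM to 118, 112 and 108 CPM in MDA-MB-231 (log2 fold change 1.21 ± 0.09, edgeR adjusted p = 6.25e-07). In 4T1 it went from 7.03, 5.17 and 6.62 CPM to 13.8, 13.5 and 14.8 CPM (1.16 ± 0.14, edgeR adjusted p = 6.42e-06). ISG15, the ubiquitin-like modifier, rose in MDA-MB-231 from 151 ± 24.5 to 220 ± 43.2 CPM (0.55 ± 0.14) and measured 3 ± 0.791 and 3.90 ± 0.575 CPM with overlapping groups in 4T1 (edgeR adjusted p = 0.164).

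HERC6, a ligase of the same family as the human ISG15 ligase, rose in MDA-MB-231 from 15.1, 16.4 and 17.0 CPM to 29.3, 26.7 and 27.4 CPM (log2 fold change 0.78 ± 0.10, edgeR adjusted p = 5.15e-05). In 4T1 Herc6 went from 1.88 ± 0.538 to 3.03 ± 0.201 CPM (0.69 ± 0.25, edgeR adjusted p = 0.0261). This call was lost in DESeq2 (adjusted p = 0.0865) and when DMSO replicate 2 or 3 or ponatinib replicate 1 or 2 was left out (edgeR adjusted p up to 0.0995).

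The IFI group counts XAF1 and EPSTI1 beside the IFI genes. It had some of the steepest rises in MDA-MB-231, mostly from low levels. XAF1, which binds the apoptosis inhibitor XIAP, went from 3.25, 3.5 and 2.89 CPM to 16.6, 16.0 and 15.7 CPM (log2 fold change 2.32 ± 0.14, edgeR adjusted p = 1.61e-07). EPSTI1 went from 0.929, 1.88 and 2.83 CPM to 7.07, 8.73 and 7.50 CPM (2.03 ± 0.28, edgeR adjusted p = 8.79e-05). IFI44L rose from 0.302 ± 0.0754 to 1.65 ± 0.0554 CPM (2.42 ± 0.36), and IFI6, a mitochondrial survival factor, from 31.3 ± 3.91 to 52.8 ± 6.62 CPM (0.75 ± 0.12).

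IFI27 and IFI44 passed the threshold only narrowly in MDA-MB-231. IFI27 went from 0.493 ± 0.150 to 0.993 ± 0.195 CPM (log2 fold change 1.00, edgeR adjusted p = 0.0461) and lost its call in DESeq2 (adjusted p = 0.227), without the filter (0.121) and when any 1 library was left out (0.0532 to 0.168). IFI44 went from 22.6 ± 0.450 to 27.5 ± 1.67 CPM (0.28, edgeR adjusted p = 0.0244). Its call was lost in DESeq2 (adjusted p = 0.0996), without the filter (0.106), and when any DMSO library or ponatinib replicate 2 was left out (0.0606 to 0.114). IFI35 measured 49.4 ± 9.22 and 50.7 ± 7.47 CPM (0.04 ± 0.14, edgeR adjusted p = 0.831).

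In 4T1 all 3 tested genes of this group rose. Ifi35 went from 10.8, 7.50 and 8.31 CPM to 22.2, 19.7 and 17.1 CPM (log2 fold change 1.15 ± 0.15, edgeR adjusted p = 1.22e-05), although its exons overlap the far more abundant Vat1 on the opposite strand (4190 to 4788 counts per library). Ifi27 went from 22.2, 21.4 and 21.1 CPM to 26.7, 30.2 and 32 CPM (0.46 ± 0.10, edgeR adjusted p = 0.00145). Xaf1 rose from 0.778 ± 0.133 to 3.17 ± 0.594 CPM (2.01). Ifi44l and Epsti1 were at 0 in all 6 libraries, and Ifi44 had 0 counts with DMSO and 4 with ponatinib.

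PARP9, DTX3L and PARP14 are neighbours on human chromosome 3 and mouse chromosome 16, and the products of PARP9 and DTX3L form a complex of an ADP-ribosyltransferase and a ubiquitin ligase. PARP14 rose in MDA-MB-231 from 17.4, 19.7 and 18.6 CPM to 31.8, 38.1 and 37.6 CPM (log2 fold change 0.95 ± 0.11, edgeR adjusted p = 1.68e-05). In 4T1 it rose from 5.22, 7.67 and 6.56 CPM to 22.8, 19.7 and 20.5 CPM (1.69 ± 0.14, edgeR adjusted p = 1.71e-07).

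PARP9 rose in MDA-MB-231 from 5.70, 5.25 and 6.10 CPM to 8.26, 8.79 and 10.5 CPM (log2 fold change 0.69 ± 0.15, edgeR adjusted p = 0.00243). DTX3L there measured 19 ± 1.44 and 20.3 ± 1.62 CPM (0.09 ± 0.11, edgeR adjusted p = 0.498). In 4T1 both rose, Parp9 from 8.64 ± 0.565 to 24.5 ± 2.91 CPM (1.5) and Dtx3l from 3.86 ± 0.274 to 11.3 ± 2.11 CPM (1.55). Exons of PARP9 and DTX3L overlap on opposite strands, and where counting ignores strand their reads cannot be told apart.

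TRIM21, an intracellular antibody receptor and ubiquitin ligase, rose in 4T1 from 2.15, 2.22 and 3.06 CPM to 9.2, 6.41 and 7.81 CPM (log2 fold change 1.65 ± 0.20, edgeR adjusted p = 6.87e-06). In MDA-MB-231 it went from 28.8 ± 0.968 to 37.4 ± 2.12 CPM (0.38 ± 0.09, edgeR adjusted p = 0.0035). LGALS3BP, a secreted glycoprotein, increased from 892 ± 102 to 1346 ± 128 CPM in MDA-MB-231 (0.59 ± 0.10) and from 601 ± 20.9 to 1161 ± 36.9 CPM in 4T1 (0.95 ± 0.07). SP110 measured 13.6 ± 0.521 and 13.7 ± 0.952 CPM in MDA-MB-231 (edgeR adjusted p = 0.936), and Sp110 had 1 count in all of 4T1.

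The guanylate-binding GTPases held both the largest rise and the largest fall of MDA-MB-231. GBP2 (chr1:89106132-89150456 in hg38) went from 4.71, 6.80 and 5.22 CPM to 31.9, 30.5 and 30.1 CPM (log2 fold change 2.46 ± 0.14, edgeR adjusted p = 8.43e-08). GBP3 (chr1:89006679-89022894), in the same cluster, fell from 32.6, 32.8 and 38.8 CPM to 17.8, 22.8 and 23.4 CPM (-0.70 ± 0.12, edgeR adjusted p = 0.000501). In 4T1, Gbp2 (chr3:142326349-142343779 in GRCm39) was higher by the largest factor of any tested member, from 0.113, 0.167 and 0.383 CPM to 1.79, 2.48 and 2.44 CPM (3.29 ± 0.41, edgeR adjusted p = 9.12e-06). Its base was 12 counts over the 3 DMSO libraries and 128 over the 3 ponatinib libraries. Gbp3 had 9 and 13 counts and was not tested. Guanylate-binding genes are a family of close paralogs, among which reads can be shared.

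By role, the share of members that rose was largest in the ISG15 system (3 of 3 tested), the IFI group (6 of 7) and the antiviral effectors (7 of 8) in MDA-MB-231, and lower for the cascade (2 of 5), the sensors (3 of 6), the PARP9 group (4 of 6) and the GBP genes (1 of 2). In 4T1 all tested members of the cascade (5 of 5), the IFI group (3 of 3), the PARP9 group (5 of 5) and the GBP genes (1 of 1) rose, beside 3 of 5 sensors, 5 of 9 effectors and 2 of 3 genes of the ISG15 system. The group medians ran from 0.46 (cascade) to 1.36 (effectors) on the log2 scale in MDA-MB-231 and, where 3 or more genes were tested, from 0.38 (sensors) to 1.55 (PARP9 group) in 4T1. The PARP9 group counts SP110, TRIM21 and LGALS3BP beside PARP9, DTX3L and PARP14, so its values are not those of the PARP9 complex alone. For comparison, the share of risen genes over everything tested was 27.2% in the human line and 29.5% in the mouse line. With 1 to 9 tested genes each, the groups are described, and no test ranked them against each other or against these shares.

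Of the 29 members tested in both lines, 16 rose in both, as did 12.2% of the 9838 genes of shared symbol tested in both. These were 16 of the 26 risen in MDA-MB-231 and 16 of the 24 risen in 4T1. The difference between the lines was tested itself, as the interaction of line and treatment over these genes of shared symbol. Human and mouse genes were matched by symbol alone, and whether the paired genes correspond by descent was not checked. Of 29 members in this test, 10 had a larger log2 fold change in 4T1 (24.2% of all genes) and 6 a smaller one (25.5%). In either direction that is 16 of 29 members, near the 49.6% of all genes called. The larger ones were IRF1, IRF7, USP18, OAS3, BST2, IFI35, PARP9, DTX3L, PARP14 and TRIM21. The smaller ones were STAT2, IFIH1, DHX58, ADAR, IFIT1 and ISG20.

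The largest of these differences (4T1 minus MDA-MB-231, log2) were 2.34 ± 0.46 for USP18 (edgeR adjusted p = 0.000415), -2.15 ± 0.30 for IFIT1 (1.19e-05) and 1.53 ± 0.23 for IRF7 (2.52e-05). Differences of the same kind were 1.42 ± 0.17 for OAS3 (2.18e-06) and -1.28 ± 0.17 for ISG20 (8e-06). No difference was called for 13 members, among them UBE2L6 (-0.13 ± 0.16), HERC6 (-0.16 ± 0.23), XAF1 (-0.38 ± 0.31) and MX2 (0.36 ± 0.42). Blocking on replicate number added 2 members with a larger change in 4T1, EIF2AK2 (edgeR adjusted p = 0.0409) and LGALS3BP (0.00202). The LGALS3BP difference also passed in DESeq2 (adjusted p = 0.0484), with total counts (edgeR, 0.00696), and without 4T1 DMSO replicate 1 (0.041), 4T1 ponatinib replicate 1 (0.0481) or MDA-MB-231 ponatinib replicate 1 (0.0209).

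**Figure D3:**
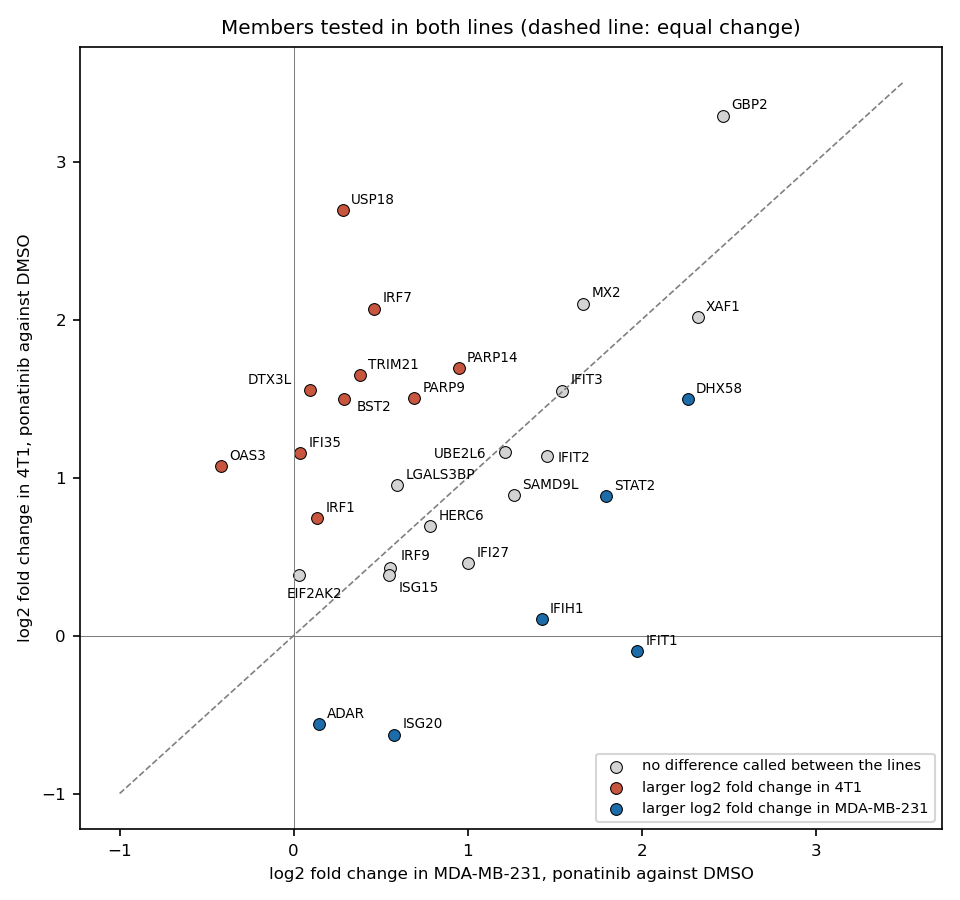
Log2 fold change with ponatinib in MDA-MB-231 (horizontal axis) and 4T1 (vertical axis) for the members tested in both lines; colour gives the call of the interaction test. A difference was called for 10 of the members above the dashed line of equal change and for 6 of those below it. Members with no called difference lie on both sides as well. OAS3 and ISG20 are the members called in opposite directions.

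The interferons themselves were at or near 0. In MDA-MB-231, IFNB1, IFNE, IFNK, IFNL2, IFNL3 and IFNG had no count, and IFNL1 had 5 counts with DMSO and 2 with ponatinib. In 4T1, Ifnk, Ifnl2, Ifnl3 and Ifng had none, Ifne had 5 counts in 1 DMSO library, and Ifnb1 had 0 counts with DMSO and 12 with ponatinib, at least 4.08-fold higher against the floor of 3 counts over the group. The 13 interferon-α genes, a family added after values had been seen, had 0 counts in both lines and groups.

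Of the receptor chains, IFNAR1, which binds type I interferon, fell in both lines. It went from 34.2, 34.6 and 33.3 CPM to 26.1, 27.7 and 31.3 CPM in MDA-MB-231 (log2 fold change -0.26 ± 0.10, edgeR adjusted p = 0.0367) and from 32.8, 32.4 and 34.8 CPM to 22.6, 21.8 and 22.2 CPM in 4T1 (-0.59 ± 0.09, edgeR adjusted p = 8.13e-05). No ponatinib library reached the lowest DMSO library of its line. IFNGR1, a chain of the interferon-γ receptor, rose in both (0.67 and 0.81), and so did IL10RB, a chain of the type III receptor (0.91 and 0.59). In 4T1 Ifnar2 (0.46), Ifngr2 (0.85) and Ifnlr1 (0.28) also rose, while in MDA-MB-231 their log2 fold changes were 0.17, -0.09 and 0.21 and missed the threshold (edgeR adjusted p of 0.574 to 0.616).

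Among the kinases and STAT genes, TYK2 rose from 118, 101 and 108 CPM to 154, 132 and 147 CPM in MDA-MB-231 (log2 fold change 0.41 ± 0.09) and from 41.2, 35.2 and 35.4 CPM to 68.7, 56.1 and 62.5 CPM in 4T1 (0.74 ± 0.10). JAK1 and STAT3 passed the threshold in neither line. Jak2 rose in 4T1 (0.39), and JAK2 measured 2.67 ± 0.0809 and 2.52 ± 0.974 CPM in MDA-MB-231.

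Upstream of the interferons, CGAS, the cytosolic DNA sensor, fell in both lines. Its values were 58.8, 61.2 and 55.7 CPM with DMSO and 27.1, 30.3 and 29.2 CPM with ponatinib in MDA-MB-231 (log2 fold change -1.02 ± 0.09), and 11.4, 13.3 and 15.4 CPM against 5.06, 6.15 and 5.21 CPM in 4T1 (-1.29 ± 0.15). The largest rises among the sensing genes were those of the RNA receptor TLR3 in MDA-MB-231, from 2.59, 2.65 and 3.02 CPM to 5.74, 6.69 and 7.67 CPM (1.28 ± 0.19), and of the kinase Ikbke in 4T1, from 20.4, 19.8 and 20.2 CPM to 51.0, 49.8 and 50.3 CPM (1.32 ± 0.09).

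Of the other interferon regulatory factors, the largest rise in MDA-MB-231 was that of IRF5, from 2.12, 1.81 and 1.51 CPM to 8.26, 9.49 and 7.23 CPM (log2 fold change 2.19 ± 0.20, edgeR adjusted p = 3.4e-06). In 4T1 it was that of Irf3, from 48.1, 42.0 and 44.1 CPM to 52.2, 52.6 and 58.5 CPM (0.28 ± 0.09, edgeR adjusted p = 0.0113). SOCS3, a feedback inhibitor of cytokine signaling, fell from 55.8, 53.9 and 57.3 CPM to 27.0, 28.0 and 27.2 CPM in MDA-MB-231 (-1.02 ± 0.08) and from 87.8, 77.7 and 86.0 CPM to 52.3, 44.3 and 51.1 CPM in 4T1 (-0.77 ± 0.09). Over the whole list of pathway genes that are not members, MDA-MB-231 had 10 risen and 7 fallen of 29 tested (median 0.17), beside 27.2% and 26.8% of all tested genes, and 4T1 had 14 risen and 8 fallen of 29 (median 0.16), beside 29.5% and 29.4%.

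**Figure D4:**
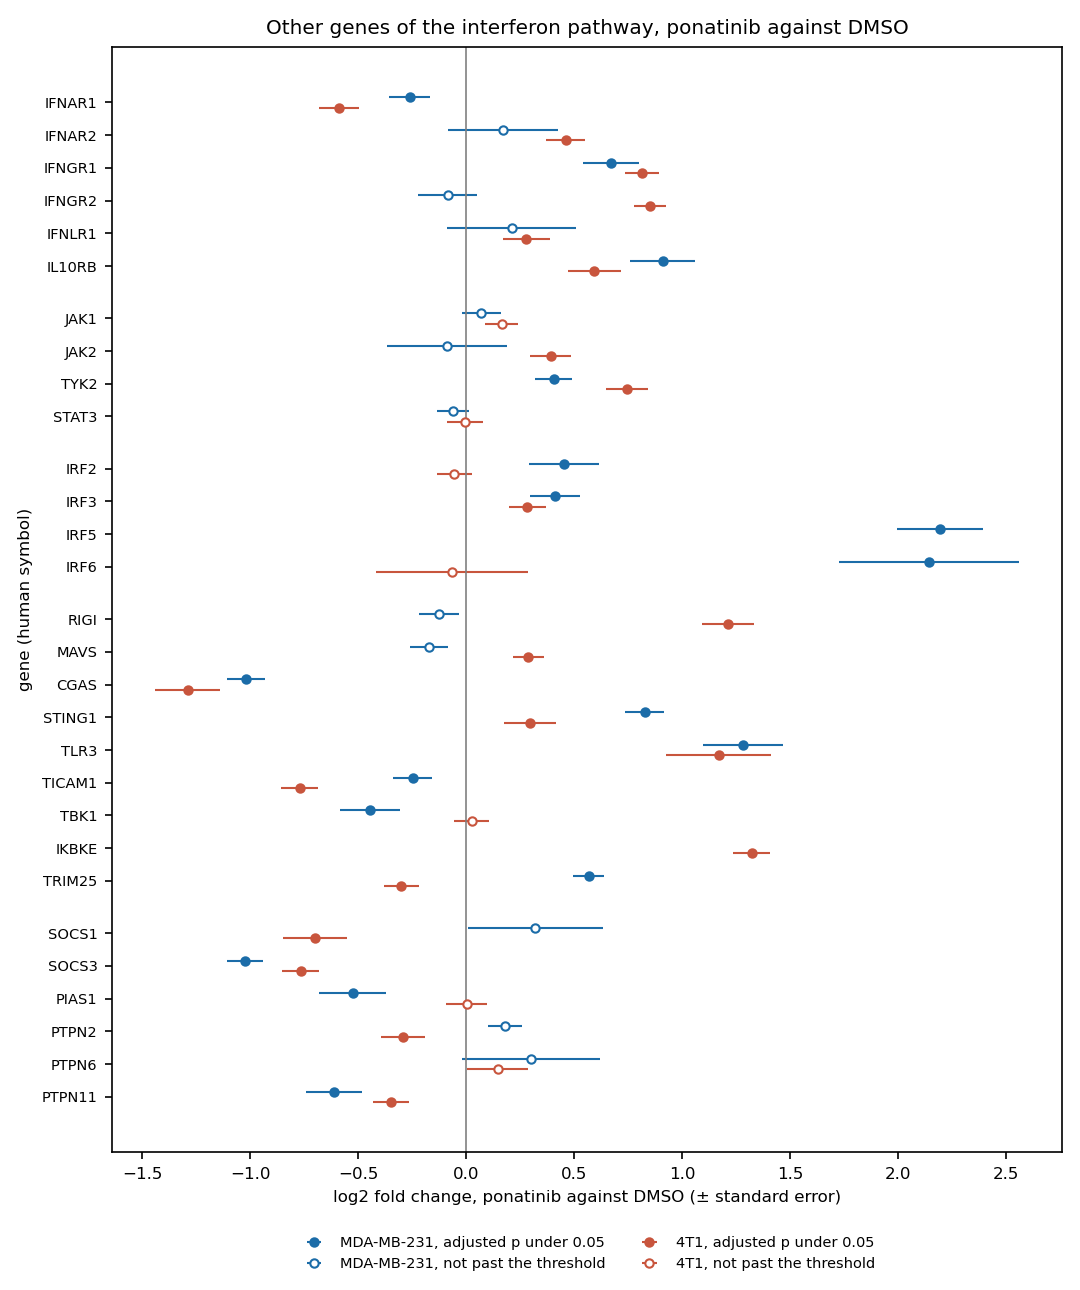
Log2 fold change (± standard error), ponatinib against DMSO, of the other interferon pathway genes reported here that were tested in at least 1 line, in MDA-MB-231 (blue) and 4T1 (red), with filled points at an adjusted p under 0.05. CGAS and SOCS3 lie left of 0 in both lines and IFNGR1, IL10RB and TYK2 right of 0 in both.

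The promoter elements were spread over members of every behaviour. In MDA-MB-231 an ISRE core was found in 14 of the 20 risen members with a promoter sequence, in both fallen members, OAS3 and GBP3, and in 3 of 8 members that were not called. In 4T1 it was found in 10 of 24 risen members, in 1 of 3 fallen ones (Rsad2), in 3 of 4 that were not called (Ifih1, Ifit1 and Isg15) and in 1 of 7 that were not tested. The windows printed for OAS3 and Rsad2 thus hold an element of the same kind as those of IFIT1 and Usp18, whose levels moved the other way. The nearest element started 103 bases before the start site in IFIT1, 122 in IFIT3 and 12 in OAS3.

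**Figure D5:**
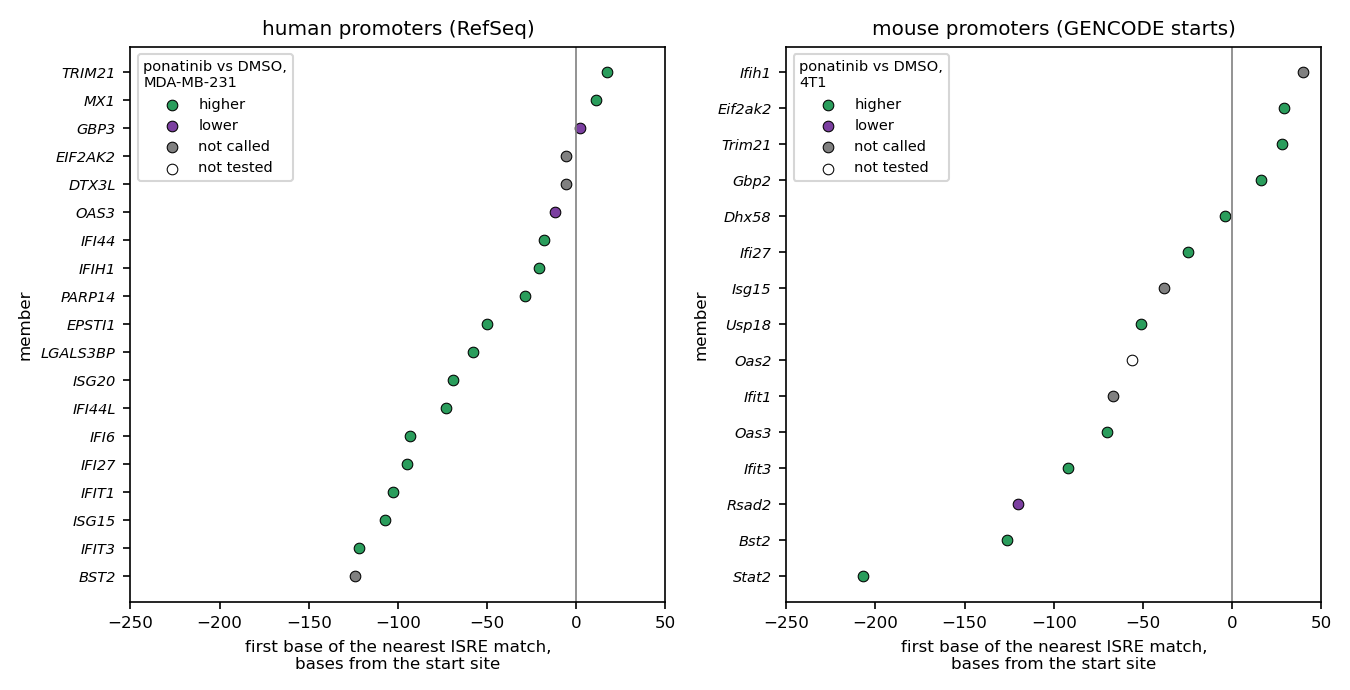
Position of the ISRE core nearest to the start site (horizontal axis, bases; 0 is the start site) in the promoters of 19 human and 15 mouse members, coloured by their call with ponatinib in the line of that species. The elements lie from 124 bases before to 17 after the start site in human, with the fallen members OAS3 and GBP3 close to it, and from 207 before to 40 after in mouse, with the fallen member Rsad2 at 120 before.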

How the data were processed

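Total RNA of both lines was sequenced (NEBNext Ultra libraries). Per the labels and the methods, the authors trimmed away reads with adapter or poly-N, mapped what was left by HISAT2 (hg38, GRCm39) and obtained counts per gene by HTSeq. These deposited counts are raw and were not normalized. Tool versions, annotation and strand setting are not given in the sources used here. Samples were grouped by their labels. Names and coordinates came from GENCODE v44 (81.9% of human identifiers, 99.3% of counts) and vM39 (91.1% and 99.8%).

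Ponatinib was compared with DMSO within each line by the quasi-likelihood test of edgeR 4.0.16 (R 4.3.3), after filterByExpr and TMM, with Benjamini-Hochberg adjustment over all genes tested, and the interaction of line and treatment was tested over shared symbols. CPM used TMM-scaled totals, and RPKM the union of exons. The edgeR fits were tested on simulated data. The members and lists were chosen with earlier results of these data known. Every member is accounted for. Values per library are given for the cascade genes, for the 2 largest called changes of each other role (mean of 5 CPM or more in the group that is higher), for genes called in opposite directions, and for the largest called changes of the pathway list. Other values per library were added after they had been seen. Some genes of the pathway and marker lists are counted but not reported here by name.

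Nothing says that replicates were separate cultures, so p-values measure the spread between these samples. Deviations from the group means of same-numbered ponatinib and DMSO libraries correlated at 0.345, 0.111 and 0.133 (MDA-MB-231) and 0.213, 0.119 and 0.115 (4T1). As each value exceeds 0.1, same-numbered libraries were treated as pairs in the block, a pairing that comes from these values and not from the labels. Alternatives were DESeq2 1.42.0, its size factors, total counts, no filter, a minimum of 10 counts per library, the replicate block and each library left out. Intervals and floors cover counting error only.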

Additional observations from a re-analysis of the deposited data

Results flagged for a closer look

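The lines differed for 16 members in their log2 fold change with ponatinib, by edgeR's test of the interaction of line and treatment, 16 of 29 tested in both, near the 49.6% of all genes called in this test. The difference (4T1 minus MDA-MB-231) was 0.54 for IRF1, 1.53 for IRF7, 2.34 for USP18, 1.42 for OAS3, 1.14 for BST2, 1.04 for IFI35, 0.74 for PARP9, 1.39 for DTX3L, 0.67 for PARP14 and 1.20 for TRIM21. It was -0.99 for STAT2, -1.39 for IFIH1, -0.84 for DHX58, -0.78 for ADAR, -2.15 for IFIT1 and -1.28 for ISG20. DHX58 had the weakest of these calls (adjusted p = 0.0469), which was lost in many alternatives. The lines differ in species, and for several members in starting level, and neither difference can be told apart from the line.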

How the results depend on the processing

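The counts of called members stayed within 1.5 times of those given under every alternative, from 24 to 28 higher and 2 lower in MDA-MB-231, 20 to 25 higher and 3 lower in 4T1, and 9 to 12 larger and 5 to 6 smaller differences in 4T1. The median log2 fold change in 4T1 (1.07) was 0.94 with at least 10 counts in every library (26 members tested), 1.15 with no filter (36 tested) and 1.19 with total counts, which moved the median of all genes by 0.12 in 4T1 and to 0.11 in MDA-MB-231. Without 1 library each it ranged from 0.96 to 1.14. Total counts also called ADAR, BST2 and the LGALS3BP line difference. The replicate block added ADAR and BST2 in MDA-MB-231 and EIF2AK2 and LGALS3BP between the lines and changed no other call of a member. Signs turned only for values that were not called. SP110 in MDA-MB-231 was -0.00768 in DESeq2 and -0.0161 with no filter, Ifit1 in 4T1 0.014 with total counts, and the line difference of IFIT3 0.033 with total counts. Leaving out 1 library gave SP110 -0.0276 to 0.0711, IFI35 -0.0898 to 0.19 and EIF2AK2 -0.0590 to 0.117 in MDA-MB-231, and Ifit1 -0.34 to 0.36 in 4T1, and line differences of -0.311 to 0.0357 for IRF9, -0.130 to 0.0671 for IFIT3, -0.188 to 0.0197 for UBE2L6 and -0.241 to 0.147 for HERC6. The cause was not tested. The DHX58 line difference was lost in DESeq2, with DESeq2's size factors, with total counts, with no filter and in 9 of 12 omissions of a library. The difference of GBP2 (0.75) was called only without 4T1 DMSO replicate 3 (1.44, edgeR adjusted p = 0.0449). Depth limits the members with few counts, of which 2 in MDA-MB-231 and 7 in 4T1 could not be tested.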
